A study of Mus musculus with 6 samples.

Results

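The genes described here are 34 genes of the mouse lysosome: the acid hydrolases that break down protein, sugar chains, sulfated sugars and lipids, and the main proteins of its membrane. They were chosen by gene symbol from a fixed list, though earlier results of these data were known by then. They make up 34 of the 19695 genes named on the array. All 34 had a probe under their current symbol, 41 probes in all, and 33 were above background in at least 1 sample. Ids, the sulfatase that removes sulfate from iduronic acid, was above background in no sample and is given no comparison.

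Transcripts were measured in C57BL/6J mice before and after weaning, in the ileum, where the small intestine ends. Germ-free mice, kept in isolators without microbes, gave 2 preweaned samples and 1 postweaned sample. Conventional mice held in specific pathogen free (SPF) housing gave 1 preweaned and 1 postweaned sample, and 1 preweaned sample came from humanized gnotobiotic mice, whose community is not described in the sources used here. The study gives an age of 3 weeks for gnotobiotic mice and for germ-free mice used with them, without tying it to single samples. Each sample has 3 arrays, but germ-free preweaned 1 has 6, in 2 column sets. No label says whether the sets come from the same mice, and Y-linked transcripts differed between them, Ddx3y lying at 9.63 and 6.01 and Eif2s3y at 8.42 and 5.68 in log2 intensity. The sets were averaged as 1 sample, and with either alone 19 members were 2-fold or more lower in germ-free weaning.

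Lysosomes receive their hydrolases from the Golgi through mannose phosphate tags and digest what endocytosis and autophagy bring in. In suckling rodents the enterocytes of the ileum take up milk protein by endocytosis and digest it inside large lysosomes, and at weaning they are replaced by enterocytes that digest at the brush border. Macrophages and other phagocytes of the gut wall are rich in lysosomes as well. Transcription factors of the MiT/TFE family bind an E-box in the promoters of many lysosomal genes, at an element built around CACGTG.

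Promoters of some members that hold these letters, and of Ctsc, which does not, are printed to show where they lie, with each CACGTG in capitals. Hexa, Galc, Gusb and Tpp1, also 2-fold or more lower after weaning in SPF ileum, have windows without it. The sequences are RefSeq's, build GRCm38.p6, from 250 bases before to 50 bases after a gene's annotated start, 5′ to 3′ on the gene's own strand. Lgmn, at chr12:102439043-102439342 on the minus strand, is shown at the downstream of its 2 starts and holds CACGTG 49 bases before it, while the window of the other start, at chr12:102439679-102439978, holds none. Glb1, at chr9:114400828-114401127 on the plus strand, holds it 48 bases before the start, and Gaa, at chr11:119267713-119268012 on the plus strand, holds it 140 bases before. In Gla, at chrX:134600956-134601255 on the minus strand, it lies 227 and 194 bases before the start. The window of Lamp1, at chr8:13158911-13159210 on the plus strand, holds 4 copies, 61, 45, 28 and 15 bases before the start. Ctsc, at chr7:88277835-88278134 on the plus strand and the only member that was 2-fold or more higher in both weaning comparisons, holds none.
Lgmn: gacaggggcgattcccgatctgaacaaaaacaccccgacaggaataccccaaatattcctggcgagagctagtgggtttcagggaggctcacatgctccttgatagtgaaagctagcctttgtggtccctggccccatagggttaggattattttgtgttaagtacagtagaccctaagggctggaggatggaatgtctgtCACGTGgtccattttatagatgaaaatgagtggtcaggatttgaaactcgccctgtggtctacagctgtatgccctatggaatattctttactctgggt
Glb1: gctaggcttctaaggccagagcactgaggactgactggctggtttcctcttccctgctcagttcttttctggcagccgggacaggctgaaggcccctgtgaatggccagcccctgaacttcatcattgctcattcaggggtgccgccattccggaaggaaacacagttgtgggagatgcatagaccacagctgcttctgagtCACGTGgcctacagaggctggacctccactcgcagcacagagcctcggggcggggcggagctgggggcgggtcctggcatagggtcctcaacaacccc
Gaa: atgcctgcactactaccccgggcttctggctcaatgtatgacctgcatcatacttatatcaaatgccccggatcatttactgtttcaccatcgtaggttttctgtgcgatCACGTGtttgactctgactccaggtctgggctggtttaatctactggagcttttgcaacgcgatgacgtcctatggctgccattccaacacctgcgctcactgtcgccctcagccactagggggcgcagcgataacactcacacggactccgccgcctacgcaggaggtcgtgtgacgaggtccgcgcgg
Gla: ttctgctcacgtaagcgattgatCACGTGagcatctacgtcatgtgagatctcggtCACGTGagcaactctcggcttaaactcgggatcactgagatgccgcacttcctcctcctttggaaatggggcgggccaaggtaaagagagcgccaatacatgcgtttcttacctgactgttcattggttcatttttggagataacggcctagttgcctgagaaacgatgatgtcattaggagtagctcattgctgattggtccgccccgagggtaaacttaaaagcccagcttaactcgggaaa
Lamp1: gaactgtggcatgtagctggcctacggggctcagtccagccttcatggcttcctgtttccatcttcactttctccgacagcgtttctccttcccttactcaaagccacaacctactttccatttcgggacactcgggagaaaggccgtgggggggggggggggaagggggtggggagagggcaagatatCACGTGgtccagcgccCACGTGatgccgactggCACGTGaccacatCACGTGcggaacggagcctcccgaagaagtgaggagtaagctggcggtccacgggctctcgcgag
Ctsc: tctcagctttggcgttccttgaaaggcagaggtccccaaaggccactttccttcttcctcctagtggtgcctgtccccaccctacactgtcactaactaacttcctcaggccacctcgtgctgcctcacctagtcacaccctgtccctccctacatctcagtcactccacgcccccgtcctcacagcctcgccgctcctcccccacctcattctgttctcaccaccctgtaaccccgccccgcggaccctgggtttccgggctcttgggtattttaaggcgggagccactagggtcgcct

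Windows were found for 30 of the 34 members. CACGTG, a palindrome that reads alike on both strands, lay in at least 1 window of 9 of the 30 members, or 30%, against 8.09% of 27025 genes with such windows. The longer TCACGTG, searched on both strands and contained in the CACGTG sites counted above, lay in 8 of the 30, or 26.7%, against 4.29% of genes. Of 14 members with a window that were 2-fold or more lower in both weaning comparisons, 6 held CACGTG, and of the 16 other members 3 did. The 9 were Lgmn, Ctsa, Ctsl, Glb1, Gaa and Gla of the former and Ctsd, Arsa and Lamp1 of the latter. A match describes letters only, and their part in the levels was not tested.

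Values are log2 of quantile-normalized intensity plus 50, averaged over the arrays of a sample, and those of different probes are not compared with each other. Levels are listed throughout for germ-free preweaned 1, germ-free preweaned 2, humanized preweaned, SPF preweaned, germ-free postweaned and SPF postweaned, in that order. The SD between arrays of a sample, pooled within the column sets of germ-free preweaned 1, was at most 0.396 for any member's probe used. Differences are postweaned minus preweaned with the standard error (SE) of a limma fit over all 6 samples, and 2-fold is 1 on the log2 scale. Because 4 of 5 groups hold 1 sample, the SE rests on the germ-free preweaned pair alone, each lone sample being assumed to vary like that pair. Nothing says that this pair came from separate mice, so the p-values rest on a spread that may be technical.

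After weaning most members were lower in both kinds of mice. In SPF ileum 23 of 33 members were 2-fold or more lower, where 8.64% of all 12196 genes tested were, and 1 was 2-fold or more higher, where 10.5% were. The median over members was -1.43 and over all genes -0.04. In germ-free ileum 18 of 33 were 2-fold or more lower against 12.7% of all genes, and 2 were higher against 11.6%, with medians of -1.08 and 0.00. Averaged over both comparisons 20 members were 2-fold or more lower (6.20% of all genes) and 1 higher (6.56%), with a median of -1.16, and 0 passed limma (smallest adjusted p 0.699, 5 at an unadjusted p under 0.05). Counting undetected groups at their bounds, described with the members concerned, left 23 lower in SPF and 15 in germ-free ileum.

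No member passed limma in either comparison (0 of 33, and 0% of all genes), with smallest adjusted p values of 0.944 in SPF and 0.598 in germ-free ileum. At an unadjusted p under 0.05 stood 0 members in SPF and 1 in germ-free ileum, that 1 being Ppt1. The germ-free count depended on the replicate: against germ-free preweaned 1 alone 24 members were 2-fold or more lower (17% of all genes) and 2 higher (16%). Against germ-free preweaned 2 alone 5 were lower (10.1%) and 5 higher (8.59%). The medians were -1.79 and -0.33. By array numbers and annotation version, germ-free preweaned 2 and the humanized sample form an array series of their own, and germ-free weaning lies within a series only against germ-free preweaned 1.

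An additive limma fit, which fits 1 weaning effect to both kinds of mice, called 10 of 33 members, all lower, and 224 of all genes, or 1.84%, when array series was a term in it. Leaving out germ-free preweaned 2, a choice made after seeing the data, gave the same values, and its only residual degree of freedom is the difference between the weaning comparisons. The 10 were Lgmn, Ctsl, Tpp1, Glb1, Hexa, Gaa, Gla, Galc, Gusb and Galns, with differences between -4.50 and -2.44 and adjusted p values from 0.000705 for Ctsl to 0.04 for Galns. With germ-free preweaned 1 left out instead, the additive limma fit called 0, with a smallest adjusted p of 0.982 and 8 members at an unadjusted p under 0.05. With all samples and no term for the series it called 0 as well, with a smallest adjusted p of 0.742 and 11 at an unadjusted p under 0.05.

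**Figure D1:**
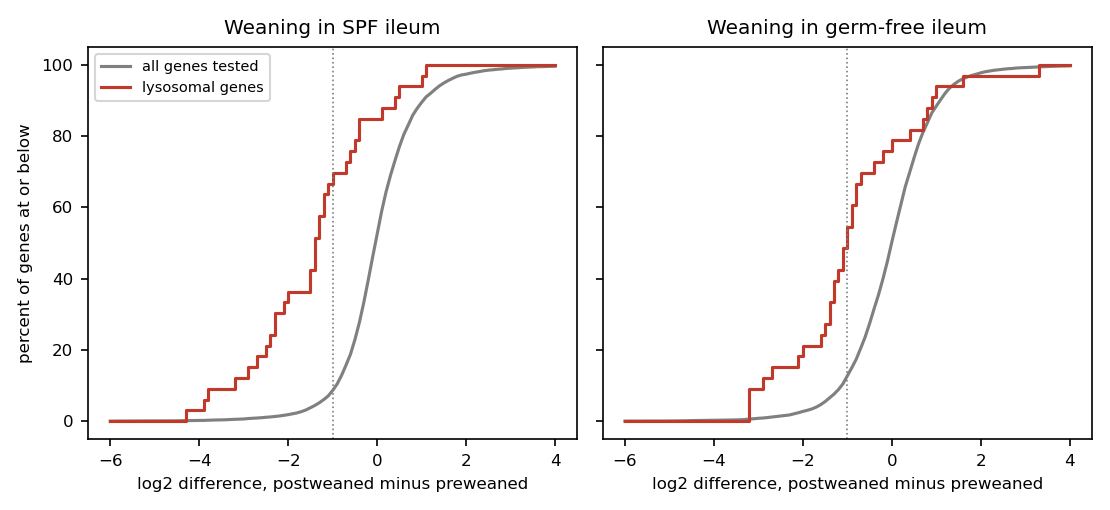
Percent of genes (vertical axis) at or below each weaning difference on the log2 scale (horizontal axis), for the 33 lysosomal genes (red) and all 12196 genes tested (grey), in SPF ileum (left) and germ-free ileum (right); the dotted line marks 2-fold lower. The red curve lies to the left of the grey one over most of the range in both panels, with 23 and 18 members at or beyond the dotted line.

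Sorted by both comparisons, 15 members were 2-fold or more lower in SPF and germ-free ileum alike, as 2.74% of all genes were. A further 6 were so in SPF ileum only (3.30% of all genes) and 3 in germ-free ileum only (4.15%). Of the 6, Ctsb and Scarb2 had a dimmer probe that was 2-fold or more lower in both. Of the 15 and the 3, only Lgmn, Ctsl, Gusb, Psap and Cd63 were 2-fold or more lower against germ-free preweaned 2 alone. Under 2-fold in both were 5 members (63.7%), opposite in sign with 2-fold in 1 of them were 2 (16%), and 1 each was higher in germ-free ileum only (7.64% of genes were higher in 1) and in both (2.47%). The 2 of opposite sign, Neu1 and Npc2, were so against the germ-free mean and germ-free preweaned 2, but not against germ-free preweaned 1. Being under 2-fold in 1 kind of mouse does not show a difference between the kinds, which was tested separately. The classes follow by what their members do.

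Among the 10 proteases and peptidases, 7 were 2-fold or more lower in SPF ileum and 6 in germ-free ileum, and 1 was higher in both. Lgmn, legumain, which cuts proteins after asparagine and matures cathepsins, lay at 15.85, 12.09, 12.22, 14.86, 10.70 and 11.06. Germ-free preweaned 1 and SPF preweaned were high, the other preweaned samples lay between, and both postweaned samples were lowest. The difference was -3.80 ± 2.10 in SPF ileum, 14-fold lower, and -3.27 ± 1.81 in germ-free ileum, 9.68-fold lower. One Lgmn spot of germ-free preweaned 1 lay at or above a raw intensity of 65000, near the top of the scale, so its level there may be a lower limit.

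Ctsl, cathepsin L, a cysteine endopeptidase, followed the same order of samples. Its levels were 15.16, 11.59, 11.86, 14.77, 10.12 and 10.81. The difference was -3.96 ± 2.0 in SPF ileum, 15.5-fold lower, and -3.26 ± 1.73 in germ-free ileum, 9.55-fold lower. For both genes the postweaned samples lay below every preweaned sample on the probe used. Against germ-free preweaned 2 alone the difference was -1.40 for Lgmn and -1.47 for Ctsl. A dimmer Ctsl probe differed by -1.07 in SPF and -1.45 in germ-free ileum. On it germ-free and SPF postweaned, at 7.21 and 7.31, lay above germ-free preweaned 2 and humanized, at 6.86 and 6.74. No array of these preweaned samples detected that probe.

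Tpp1, which removes tripeptides from the start of proteins, lay at 11.23, 9.28, 9.08, 10.20, 8.56 and 7.81. All preweaned samples were above both postweaned ones, SPF postweaned being lowest. The differences were -2.38 ± 1.15 in SPF and -1.70 ± 1.0 in germ-free ileum. Ctsz, a carboxypeptidase, lay at 14.31, 12.84, 12.85, 13.49, 12.16 and 12.28, again without overlap, with differences of -1.21 ± 0.92 in SPF and -1.42 ± 0.80 in germ-free ileum. Ctsa, the carboxypeptidase that also shields galactosidase and sialidase from breakdown, was dim at 7.72, 7.14, 6.92, 7.75, 6.35 and 6.52. No array of either postweaned sample detected it, so it was at least 2.0-fold lower in SPF ileum, and in germ-free ileum the bound gives no fold.

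Ctsd, cathepsin D, the aspartic protease of the group, was among the members that differed least on average. It lay at 12.90, 11.71, 11.71, 12.23, 11.87 and 11.12, and germ-free postweaned fell between the preweaned samples. Its difference was -1.11 ± 0.79 in SPF and -0.43 ± 0.68 in germ-free ileum, the latter 0.16 against germ-free preweaned 2 alone. Ctsb, cathepsin B, was 2.63-fold lower in SPF ileum and 1.77-fold lower in germ-free ileum. A dimmer Ctsb probe differed by -1.63 and -1.95, though 1 of 3 germ-free postweaned arrays detected it. Ctsh, an aminopeptidase, was 9.34-fold lower in germ-free and 1.33-fold lower in SPF ileum, and its germ-free value rests on replicate 1, with -5.59 against it and -0.86 against replicate 2.

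Both cathepsins best known from leukocytes stood apart from the other proteases. Ctsc, which activates the serine proteases of cytotoxic cells and neutrophils, lay at 9.10, 5.66, 5.67, 8.94, 10.59 and 10.03. It was highest in both postweaned samples and undetected on all arrays of the humanized sample and germ-free preweaned 2. The difference was 1.09 ± 1.93 in SPF and 3.21 ± 1.67 in germ-free ileum, 1.48 against germ-free preweaned 1 alone. Those samples are the array series named above, and Ctsc was the only member, against 1.37% of genes, that lay 2-fold or more apart along that line; its part in the Ctsc values was not tested. Ctss, which trims the invariant chain of MHC class II in antigen-presenting cells, lay at 12.20, 11.23, 11.04, 12.76, 12.55 and 12.19, with preweaned and postweaned samples overlapping. It differed by -0.57 ± 0.70 in SPF and 0.84 ± 0.60 in germ-free ileum.

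**Figure D2:**
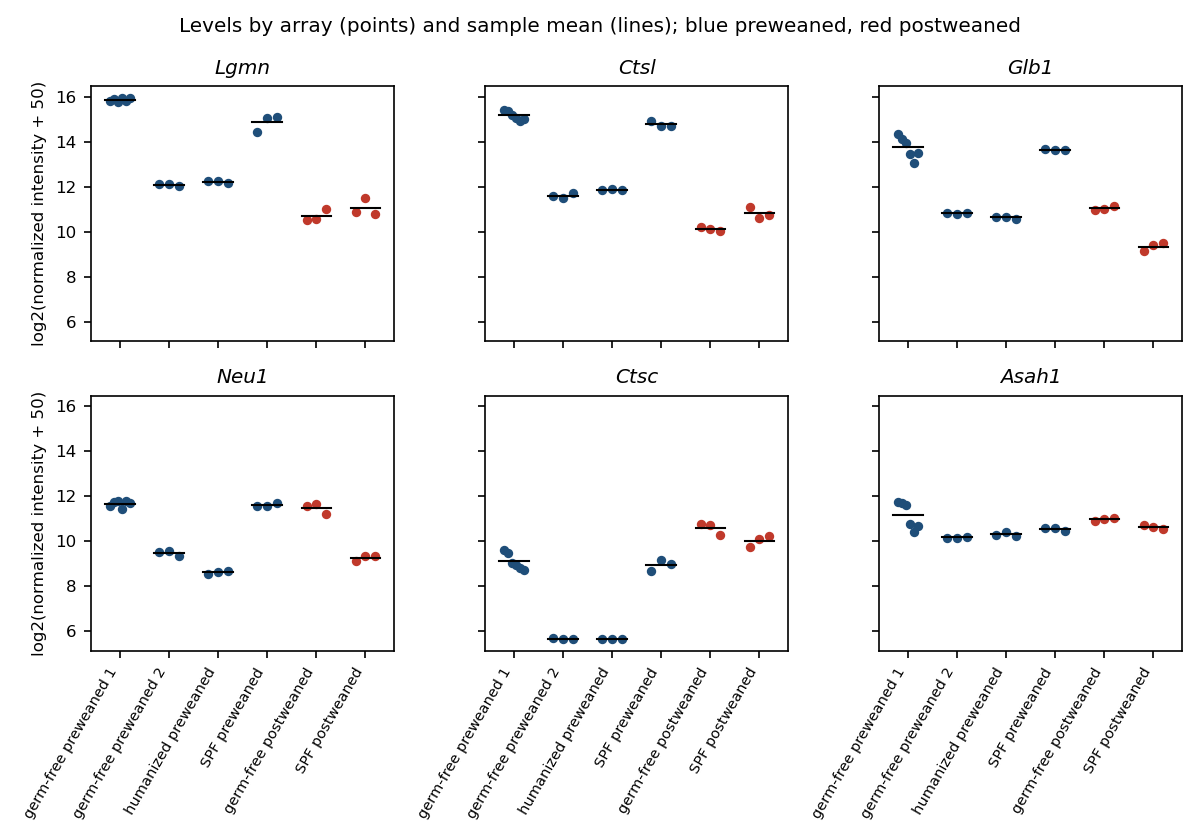
Levels of 6 lysosomal genes, as log2 of normalized intensity plus 50 (vertical axis), on each array (points) of the 6 samples (horizontal axis), preweaned in blue and postweaned in red, with lines at sample means. Lgmn and Ctsl are highest in germ-free preweaned 1 and SPF preweaned and lowest after weaning, Ctsc is highest after weaning, and Asah1 stays between 10.17 and 11.15 in its sample means.

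The 11 glycosidases had the lowest SPF median of the classes with 3 or more tested members, at -2.40, with 8 members 2-fold or more lower and 0 higher. In germ-free ileum 7 were 2-fold or more lower and the median was -1.13. Glb1, acid beta-galactosidase, which cleaves galactose from gangliosides and keratan sulfate, lay at 13.74, 10.81, 10.63, 13.64, 11.03 and 9.33. It was high in germ-free preweaned 1 and SPF preweaned, and germ-free postweaned lay above germ-free preweaned 2. In SPF ileum it was 19.8-fold lower after weaning, at -4.31 ± 1.66. The germ-free difference was -1.25 ± 1.43, and without germ-free preweaned 1 it turned to 0.22.

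Gla, alpha-galactosidase A, which trims globotriaosylceramide, lay at 12.93, 9.43, 9.28, 11.17, 8.48 and 8.42. Gaa, acid alpha-glucosidase, which breaks down glycogen, lay at 11.39, 9.02, 9.36, 11.05, 8.07 and 8.12. Gusb, beta-glucuronidase, lay at 12.17, 8.73, 9.0, 10.44, 7.47 and 8.03. In all 3 genes germ-free preweaned 1 was highest, SPF preweaned came next, and both postweaned samples lay below every preweaned sample. For Gla the difference was -2.75 ± 1.96 in SPF and -2.70 ± 1.70 in germ-free ileum. For Gaa it was -2.93 ± 1.37 and -2.14 ± 1.18, and for Gusb -2.40 ± 1.93 and -2.98 ± 1.67, though 1 of 3 germ-free postweaned arrays detected Gusb and it was not above background there. Another Gaa probe, undetected on every array of germ-free preweaned 1, gave the opposite sign in both comparisons.

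Galc, which degrades galactosylceramide, a lipid of cell membranes, lay at 9.97, 6.70, 6.68, 9.07, 6.33 and 6.55. Only germ-free preweaned 1 and SPF preweaned stood clear of the rest, and the fold is at least 5.01 lower in SPF and at least 1.74 lower in germ-free ileum, since no postweaned array detected it. Man2b1, acid alpha-mannosidase, lay at 12.81, 11.34, 11.36, 12.71, 11.02 and 10.62, with both postweaned samples lowest. Its differences were -2.09 ± 0.92 in SPF and -1.06 ± 0.80 in germ-free ileum. Hexa, the alpha subunit of beta-hexosaminidase, was 9.52-fold lower in SPF ileum and 1.77-fold lower in germ-free ileum, the latter -2.39 against replicate 1 and 0.74 against replicate 2.

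Neu1, the lysosomal sialidase, was the glycosidase whose weaning values lay furthest apart between the mice. Its levels were 11.66, 9.49, 8.62, 11.61, 11.48 and 9.27. Germ-free postweaned stayed at the level of germ-free preweaned 1 and SPF preweaned, while SPF postweaned lay with germ-free preweaned 2. The difference was -2.33 ± 1.27 in SPF and 0.91 ± 1.10 in germ-free ileum. The difference of these differences was -3.24 ± 1.68 (SE), which did not pass limma (adjusted p 0.763).

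The other glycosidases differed less. Manba, beta-mannosidase, lay at 10.02, 9.25, 9.09, 8.69, 8.70 and 9.11. Preweaned and postweaned samples overlapped, at differences of 0.42 ± 0.62 in SPF and -0.94 ± 0.54 in germ-free ileum. Idua, which removes iduronic acid from dermatan and heparan sulfate, lay at 7.50, 8.22, 8.15, 7.06, 8.47 and 8.04. It was lowest in SPF preweaned, where no array detected it, and highest in germ-free postweaned, which put it at least 1.56-fold higher after weaning in SPF ileum and 1.52-fold higher in germ-free ileum. Fuca1, the lysosomal fucosidase, was 2.19-fold lower in germ-free and 1.68-fold lower in SPF ileum. Its germ-free value rests on replicate 1, with -2.13 against it and -0.14 against replicate 2.

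Of the 4 sulfatases 3 were tested. Galns, which removes sulfate from keratan sulfate, lay at 12.17, 9.52, 9.35, 11.48, 9.47 and 9.29. It was high in germ-free preweaned 1 and SPF preweaned, and the other 4 samples lay within 9.29 and 9.52. Its difference was -2.19 ± 1.51 in SPF and -1.38 ± 1.31 in germ-free ileum, the latter -0.05 against germ-free preweaned 2 alone. Arsa, which desulfates cerebroside sulfate, was 1.62-fold and 1.89-fold lower in SPF and germ-free ileum. Arsb, which acts on dermatan sulfate, was 1.40-fold lower in SPF and at least 1.36-fold lower in germ-free ileum. Ids lay between 6.11 and 6.84 in the 6 samples, not well above background.

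The 5 lipid hydrolases and lipid carriers did not all differ in the same direction. In SPF ileum 3 were 2-fold or more lower, and in germ-free ileum 1 was lower and 1 higher. Psap, the precursor of the saposins that present lipids to hydrolases, lay at 13.24, 12.31, 12.62, 12.77, 11.28 and 11.19. The postweaned samples were lowest without overlap, at -1.58 ± 0.68 in SPF and -1.50 ± 0.59 in germ-free ileum, and at -1.03 against germ-free preweaned 2 alone. Npc2, which carries cholesterol out of the lysosome, lay at 12.60, 10.89, 11.02, 13.51, 12.48 and 11.98. SPF preweaned was highest, germ-free postweaned lay close to germ-free preweaned 1, and the 2 samples of the second array series were lowest. The difference was -1.53 ± 1.04 in SPF and 0.74 ± 0.90 in germ-free ileum.

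Asah1, acid ceramidase, varied least of all members over weaning. Its levels were 11.15, 10.17, 10.30, 10.55, 10.98 and 10.63. They overlapped between preweaned and postweaned samples, at 0.08 ± 0.70 in SPF and 0.32 ± 0.61 in germ-free ileum. Lipa, the acid lipase that frees cholesterol and fatty acids, was 2.70-fold lower in SPF and 1.72-fold lower in germ-free ileum. Ppt1, which removes palmitate from proteins, was 3.02-fold higher in germ-free ileum, at 1.59 ± 0.41 (unadjusted p 0.024, adjusted p 0.598 by limma), and 1.26-fold higher in SPF ileum. Together with Ctsc it made the 2 members that lay higher in both postweaned samples than in all 4 preweaned samples, as 10.3% of all genes did.

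All 4 membrane proteins were 2-fold or more lower in SPF ileum, between -1.47 and -1.07, and 2 in germ-free ileum. Cd63, a tetraspanin of late endosomes and lysosomes, lay at 15.68, 15.11, 15.08, 15.20, 14.06 and 14.13. Its 4 preweaned samples lay within 15.08 and 15.68 and both postweaned samples at 14.06 and 14.13. The difference was -1.07 ± 0.55 in SPF and -1.33 ± 0.48 in germ-free ileum. A dimmer Cd63 probe gave the opposite sign in SPF ileum, and the mean over both probes there was -0.30. Lamp2, a glycoprotein that lines the lysosome, lay at 15.04, 13.48, 13.73, 14.22, 13.09 and 12.89, with both postweaned samples lowest and differences of -1.33 ± 0.96 and -1.17 ± 0.83. Lamp1, its relative, lay at 15.08, 14.44, 14.40, 15.45, 14.74 and 14, where SPF preweaned was highest and SPF postweaned lowest with the other 4 samples between. The SPF difference was -1.45 ± 0.57 and the germ-free one -0.02 ± 0.50, or 0.47 with arrays centred on their medians in place of quantile normalization. Scarb2, which carries glucocerebrosidase to the lysosome, was 2.78-fold lower in SPF and 1.16-fold lower in germ-free ileum. A dimmer Scarb2 probe differed by -1.61 and -1.03, though no germ-free postweaned array detected it.

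**Figure D3:**
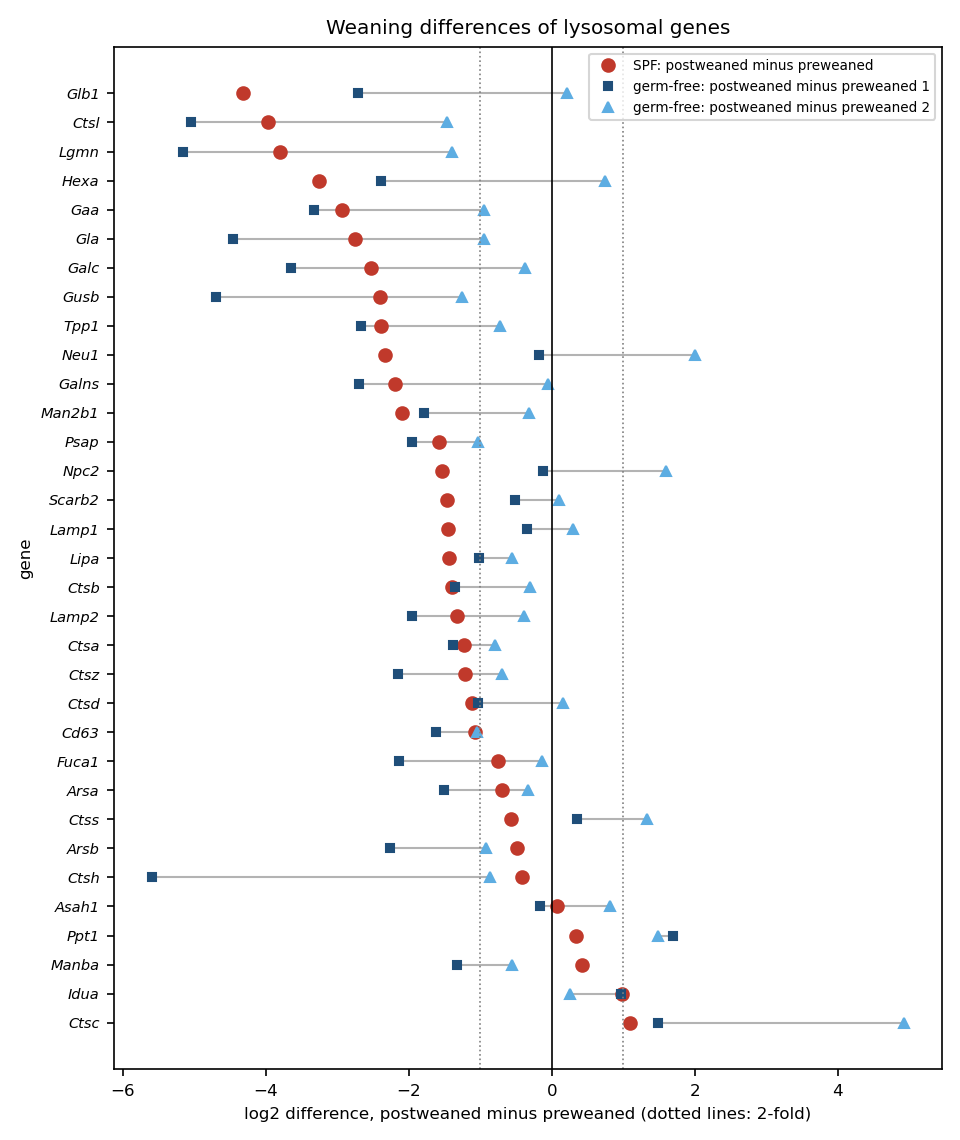
Weaning difference on the log2 scale (horizontal axis) of each of 33 lysosomal genes (vertical axis, sorted by the SPF value), in SPF ileum (red circles) and in germ-free ileum against each preweaned replicate (dark squares for 1, light triangles for 2, joined by a line); dotted lines mark 2-fold. In SPF ileum 23 circles lie at or left of -1, and 24 squares but 5 triangles do.

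Lgmn, Ctsl, Gusb, Psap and Cd63 were the 5 members that were 2-fold or more lower in SPF ileum and against each germ-free replicate separately, as 1.12% of all genes were. This holds for the probes used, and the dimmer probes of Ctsl and Cd63 did not show it. In 17 of 33 members all 4 preweaned samples lay above both postweaned samples, as in 13.3% of all genes. Among them, Ctsa and Galc were detected on no array of germ-free preweaned 2 or of either postweaned sample. Arsb was detected on none of germ-free preweaned 2 or germ-free postweaned. For these genes the order of such samples is one of undetected values. In SPF ileum 15 of the 23 members that were 2-fold or more lower differed by more than their own gap within the germ-free pair, and in germ-free ileum 4 of 18 did. Picking members by a large difference favours exceeding the gap, and no share of all genes was computed for such a pick. Over all members 17 of 33 exceeded that gap in SPF ileum, against 50.5% of all genes, and 7 of 33 did in germ-free ileum, against 54.8%.

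The germ-free preweaned samples themselves differed in most members. Of 33 members 22 were 2-fold or more higher in sample 1 than in sample 2, where 9.28% of all genes were, and 0 were lower, where 9.92% were. The median was 1.47, and the gap reached 26.5-fold in Ctsh, 13.5-fold in Lgmn and 11.9-fold in Ctsl. Sample 1 was the highest of the 6 samples for 24 members and SPF preweaned for 6. Between the column sets of sample 1, 4 members (Ctss, Arsa, Asah1 and Npc2) lay 2-fold or more apart, against 2.92% of all genes, with a member median of 0.27.

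The humanized sample lay close to germ-free preweaned 2, on the same array series. Between them 32 of 33 members were within 2-fold, as were 98.1% of all genes, and the exception was Ctsh, 1.18 higher in the humanized sample. Against the mean of both germ-free preweaned samples 13 of 33 members were 2-fold or more lower (2.34% of all genes) and 0 higher (4.16%), with a median of -0.72. That count rests on germ-free preweaned 1, against which 23 were lower, where 8.16% of all genes were, and against germ-free preweaned 2 alone it was 0, where 0.418% of all genes were. Against SPF preweaned ileum, a comparison that shares the humanized sample, 18 were 2-fold or more lower (14.6%) and 1, Idua, was higher (15.3%), with a median of -1.08. Idua and Ctsc, each undetected in 1 of these samples, are at least 1.68-fold higher and at least 3.20-fold lower there by their bounds. SPF preweaned lies outside the array series of the humanized sample, so microbiota and series cannot be told apart in this comparison. Glb1 was 8.05-fold, Neu1 7.95-fold and Ctsl 7.52-fold lower in the humanized than in the SPF preweaned sample. Limma called 0 members in both, with smallest adjusted p values of 1 and 0.501 and 0 at an unadjusted p under 0.05.

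**Figure D4:**
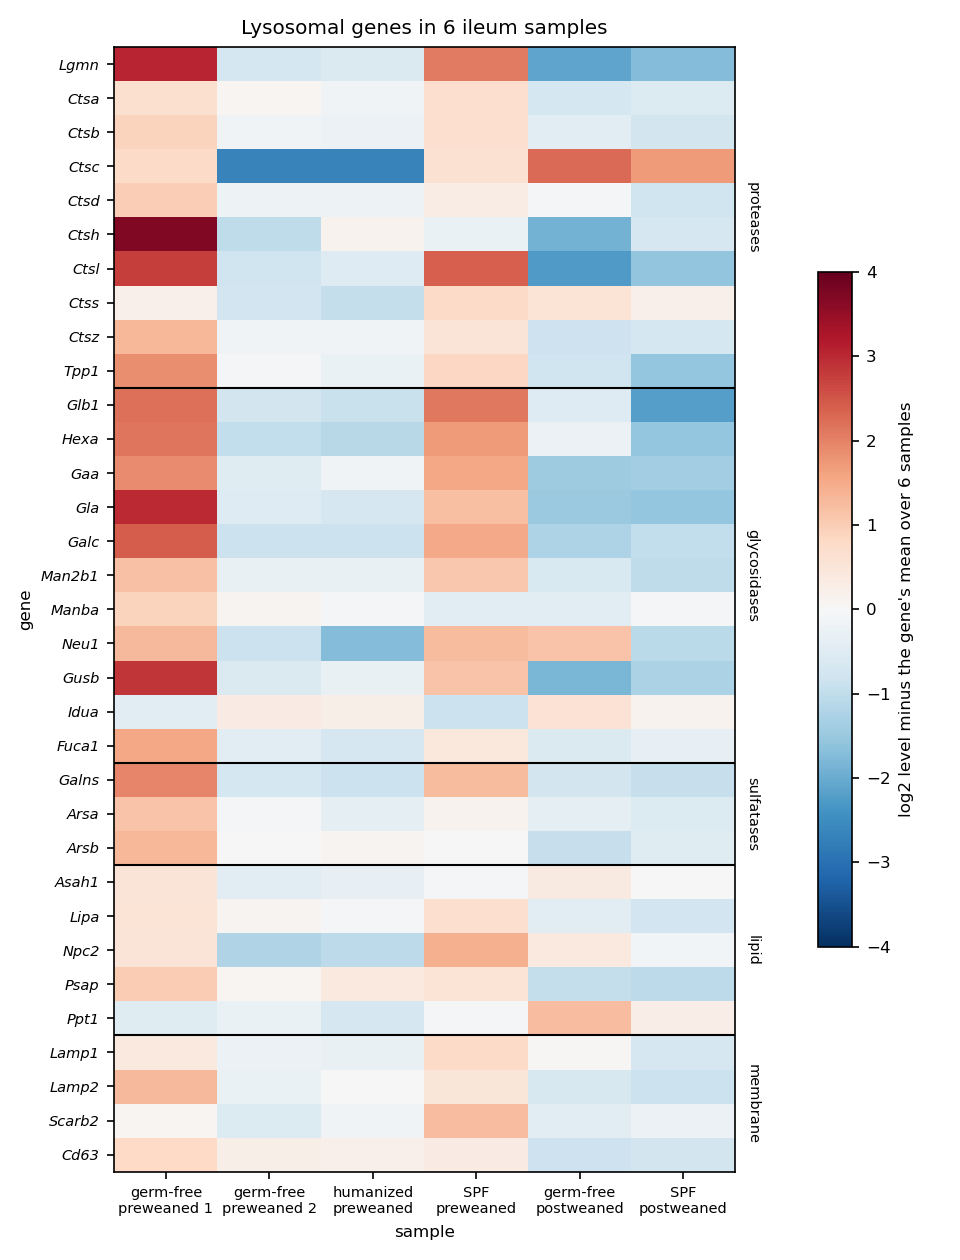
Level of each of 33 lysosomal genes (rows, grouped by class) in the 6 samples (columns), as log2 level minus the gene's mean over the 6 samples; red is above and blue below that mean. Germ-free preweaned 1 and SPF preweaned are mostly red, germ-free preweaned 2 and the humanized sample look alike, and Ctsc departs from the other proteases.

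SPF and germ-free ileum were compared at each age to ask how a microbiota relates to these genes. Before weaning SPF ileum had 8 of 33 members 2-fold or more higher (11.5% of all genes) and 1, Ctsh, was lower (11.1%), with a median of 0.29. The direction followed the replicate. Against germ-free sample 1 alone 1 member was higher (15.2% of all genes) and 7 lower (14.6%), with a median of -0.48, and against sample 2 alone 16 were higher (12.6%) and 1 lower (13%), with a median of 0.92. Scarb2 was higher by 1.47 ± 0.49 (SE), 2.77-fold, and by 1.16 against replicate 1, while no array of replicate 2 detected it; limma gave it an adjusted p of 0.513. Npc2 was higher by 1.77 ± 0.90 (SE), by 0.91 and 2.62 against the replicates. Limma called 0 members, with 1, Scarb2, at an unadjusted p under 0.05.

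After weaning 29 of 33 members were within 2-fold between SPF and germ-free ileum, as were 84.6% of all genes. In SPF ileum the 3 glycosidases Neu1, Glb1 and Hexa were 4.63-fold, 3.23-fold and 2.48-fold lower (6.37% of all genes were lower), and Ctsh was 2.33-fold higher (9.02% were higher). The median was -0.18, and limma called 0 members, with a smallest adjusted p of 1 and 0 at an unadjusted p under 0.05. For weaning in SPF minus weaning in germ-free ileum 10 members were at -1 or less (16.9% of all genes) and 3 at 1 or more (17.5%), with a median of -0.57. Limma called 0 of these differences (smallest adjusted p 0.763, 0 at an unadjusted p under 0.05), and these counts, too, followed the replicate. Without germ-free preweaned 1 there were 20 lower (16.7% of all genes) and 0 higher (17.8%), with a median of -1.27, and without germ-free preweaned 2 there were 5 lower (19.6%) and 9 higher (20.3%), with a median of 0.29. Glb1 differed by -3.06 ± 2.19 (SE) between the weaning comparisons and Hexa by -2.43 ± 2.34 (SE).

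Other lysosomal genes, listed by function, were counted beside the members. Of all genes 8.64% were 2-fold or more lower in SPF and 12.7% in germ-free ileum, and 10.5% and 11.6% were higher. Of 23 tested enzymes and activators 10 were 2-fold or more lower in SPF and 12 in germ-free ileum, and 1 and 0 were higher. Dpp7, a dipeptidyl peptidase, differed by -5.65 and -3.50, Grn, progranulin, by -2.82 and -2.44, and Prcp, a carboxypeptidase, by -2.51 and -1.44. Of 14 membrane proteins and transporters 5 were lower in each, and 1 and 2 were higher. Slc17a5, the sialic acid exporter, differed by -3.22 and -1.44 and Ctns, the cystine exporter, by -2.65 and -0.42, while Laptm4a differed by 0.70 and 2.88 and Laptm5, of blood cells, by 3.91 and -0.46. For Slc17a5 the germ-free value rests on replicate 1, since replicate 2, at 9.36, lay below germ-free postweaned ileum at 10.01. Dpp7, Grn, Prcp and Ctns were lower in germ-free postweaned ileum than in either replicate.

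The proton pump that acidifies lysosomes shared the direction at smaller size. Of its 14 tested subunits 7 were 2-fold or more lower in SPF (8.64% of all genes) and 4 in germ-free ileum (12.7%). Higher were 1 (10.5%) and 0 (11.6%). The 4 in germ-free ileum lay between -1.28 and -1, near the 2-fold limit. Atp6v1b2 differed by -2.06 and -1.28 and Atp6v1a by -1.29 and -1.03. In germ-free postweaned ileum they lay at 10.96 and 10.47, under 2-fold below germ-free preweaned 2, at 11.57 and 10.68. Atp6v0d1 and Atp6v1d were 2-fold or more lower in SPF ileum only, at -1.24 and -1.07. Of the MiT/TFE factors Tfec lay at 13.08, 9.27, 9.10, 12.31, 8.13 and 9.76, high in germ-free preweaned 1 and SPF preweaned like Lgmn and Ctsl. Its weaning differences were -2.55 and -3.05. Tfeb differed by -0.33 and -0.58 and Tfe3 by 0.22 and 0.18.

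Marker lists were measured beside the members, and their part in the results was not tested. In bulk samples fewer cells of a type and less RNA per cell cannot be told apart. The summed intensity of 8 suckling enterocyte uptake genes was 157143 in germ-free preweaned 1, 60475 in germ-free preweaned 2, 44767 in the humanized, 143194 in the SPF preweaned, 56406 in the germ-free postweaned and 34525 in the SPF postweaned sample. Germ-free preweaned 1 and SPF preweaned, also the highest samples for most members, lay far above the other 4. Of the 8 genes 6 were at -1 or less in each weaning comparison (8.64% of all genes in SPF and 12.7% in germ-free ileum). Both counts include Lrp2, which no SPF array and no germ-free postweaned array detected. Fcgrt, the neonatal Fc receptor, differed by -2.97 and -2.24 and Mamdc4 by -7.02 and -2.90. For Mamdc4 the germ-free value rests on replicate 1, at 14.82, since replicate 2, at 7.81, lay below germ-free postweaned ileum at 8.42. Meltf and Dab2, detected on no array of either postweaned sample, were at least 236-fold and 22.5-fold lower in SPF ileum and at least 9.07-fold and 1.5-fold lower in germ-free ileum. No array of germ-free preweaned 2 detected either gene, so their germ-free folds rest on replicate 1. Lrp2 was above background in germ-free preweaned 1 only and is given no fold. The sum of 8 mature enterocyte genes was 8294 in germ-free preweaned 1 and between 74972 and 117166 in the other samples. Slc2a5, Anpep and Sis were 2-fold or more higher after weaning in both, as 2.47% of all genes were. For Sis the germ-free value rests on replicate 1, at 9.04, since replicate 2, at 15.03, lay above germ-free postweaned ileum at 13.50. Slc2a5 and Anpep, at 9.33 and 12.59 in germ-free postweaned ileum, were under 2-fold above replicate 2, at 8.47 and 12.05.

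Macrophage markers did not share one direction over weaning. The sum of the 9 tested of 12 was 10365 in germ-free preweaned 1, 4665 in germ-free preweaned 2, 7360 in humanized, 2289 in SPF preweaned, 693 in germ-free postweaned and 1982 in SPF postweaned ileum. Lyz2, Fcgr1 and Cd163 were above background in no sample. Csf1r, a macrophage growth factor receptor, lay at 12.85, 8.61, 9.29, 10.90, 6.56 and 7.32 and was the only one 2-fold or more lower in both, at least 9.16-fold in germ-free ileum, where no postweaned array detected it. In SPF weaning the 8 others lay above 0, 4 of them 2-fold or more (10.5% of all genes), with a list median of 0.91. In germ-free weaning all 9 lay below 0, 6 of them 2-fold or more (12.7%), with a median of -1.45. These counts include undetected groups. In SPF ileum C1qa was 2.28-fold higher. By their bounds C1qc, Cd14 and C1qb were at least 4.69-fold, 1.36-fold and 1.09-fold higher there. In germ-free ileum C1qa was 6.77-fold lower. By their bounds C1qc, C1qb and Aif1 were at least 3.16-fold, 3.13-fold and 1.61-fold lower there. Adgre1 was detected on no germ-free array. The 4 tested of 7 dendritic and B cell markers summed to between 377 and 1243, highest in SPF postweaned.

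Over the series, an array detected 29.8% to 50.3% of its probes, and 7465 to 11109 genes were above background in a sample. Of the members 28 to 33 were above background in a sample, and 26 were so in all 6. The 8 ileum and enterocyte markers summed to between 186870 and 269936. Fabp6, the ileal bile acid binding protein, was not above background in the humanized sample. Slc10a2, the ileal bile acid transporter, was above background in 3 of 6 samples. Both were 2-fold or more higher after weaning in SPF and germ-free ileum. Slc10a2, at 9.8 in germ-free postweaned ileum, was under 2-fold above germ-free preweaned 2, at 8.85. Y-linked Ddx3y lay at 9.17 in SPF preweaned and 5.91 in SPF postweaned ileum, and at 7.82 and 9.84 in the germ-free preweaned samples and 6.51 in germ-free postweaned ileum. In sample means a difference in Y-linked transcripts thus goes with weaning in both kinds of mice. It does not hold for each column set, since Ddx3y in the second set of germ-free preweaned 1, at 6.01, lay below germ-free postweaned ileum. The part of this difference in the members' values was not tested. In 0 members did germ-free preweaned 1, 2 and the humanized sample lie 2-fold or more apart from the other 3 samples, as 3.21% of all genes did.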

How the data were processed

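Total RNA was amplified, labelled with Cy5 and hybridized to 1-colour Phalanx Mouse OneArray slides, per the labels. Per the file headers, the authors deposited raw intensity and a detection p-value for every probe on every array. Some intensities lie below 0 (lowest -14), so a background had been subtracted; how that was done, and the image software, are not given in the sources here. The deposited series matrix, by its values a linear uncentred intensity close to the mean of a sample's arrays and not equalised between samples (medians 33.3 to 97.9), served as an alternative.

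All 21 arrays were quantile-normalized, values under 0 were set to 0, 50 was added and log2 was taken, which understates differences of dim genes. Arrays were averaged within column sets and column sets within samples. The planned normexp correction was not run because the files give no background column. A probe was above background where its detection p was under 0.05 on most arrays of a sample, and was tested where this held in at least 1 sample. Each gene took its tested probe of highest mean. Where no array of a group detected a probe, its level is a bound: the fold is "at least", taken per array against the lowest detected signal, or the probe's own where that is higher. The number of arrays limits the precision.

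Symbols were brought up to date with RefSeq's GRCm38.p6 gene table, used for names and promoters: of 26423 probes 19966 matched a current symbol, 2151 an older one and 436 kept the file's. The files hold 2 versions of the annotation. In 1 of them the Cd63 probe used carries a further symbol. No value column was left unmapped (0).

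In R 4.3.3, limma 3.58.1 fitted group means to all 6 samples, with moderated 2-sided tests adjusted by Benjamini-Hochberg over 12196 genes; calls needed an adjusted p under 0.05. The script was tested on simulated data. The members, lists and tests were chosen with earlier results of these data known. Per-sample values are given for members 2-fold or more apart in the same or in opposite directions over weaning and for the 6 of smallest mean absolute weaning difference, other members by difference or range. Of other lysosomal lists up to 4 genes of largest mean difference are named, and of marker lists those 2-fold or more apart in both weaning comparisons or at background throughout. C1qa, C1qb, C1qc, Cd14, Aif1 and Adgre1 are named for their detection. Neu1 and Npc2, opposite in sign but 2-fold in 1 comparison, fell outside the rule and were chosen after their values were seen. Alternatives were the normalization, offset, filter, probe choice, column sets, series matrix, model and each germ-free replicate left out. Some items of these gene lists are not reported here by name.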

Additional observations from a re-analysis of the deposited data

Results flagged for a closer look

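In 2 members every weaning difference in germ-free ileum had the sign opposite to the SPF one. Ctss differed by -0.57 in SPF ileum and by 0.35 and 1.33 against the germ-free replicates, a difference of -1.41 ± 0.92 (SE) between the comparisons, with an adjusted p of 0.776 by limma. Manba differed by 0.42 in SPF ileum and by -1.32 and -0.55 against the germ-free replicates, a difference of 1.36 ± 0.82 (SE), with an adjusted p of 0.769 by limma. Neither difference passed, and each was under 2-fold in both weaning comparisons.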

How the results depend on the processing

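Many values depended on which germ-free preweaned replicate was left out. Members 2-fold or more lower in germ-free weaning numbered 5 without replicate 1 and 24 without replicate 2, against 18, and those higher 5 and 2, against 2. Glb1 there was 0.22 and -2.71. The members' median ranged from -1.79 to -0.33 in germ-free weaning, from -0.48 to 0.92 in SPF against germ-free ileum before weaning and from -1.27 to 0.29 in the difference of the weaning comparisons. In the last the lower count ranged from 5 to 20 and the higher from 0 to 9, and averaged over both weanings the higher count was 1 or 2. For the humanized against the germ-free samples the lower count ranged from 0 to 23 and the higher from 0 to 1. For SPF against germ-free ileum before weaning the higher count ranged from 1 to 16 and the lower from 1 to 7.

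In the additive model with array series as a term, limma called 10 members for SPF weaning, against 0, and 2 were 2-fold or more higher; the humanized sample then had 0 lower and 1 higher against germ-free, and SPF ileum before weaning 0 higher and 2 lower. The additive model without the term gave 2 higher over weaning, and for SPF ileum 1 higher and 0 lower. Without replicate 2, a choice made after seeing the data, it called 10, with 2 higher, 22 lower in the humanized sample, and 0 higher and 2 lower in SPF ileum. Without replicate 1 it put 14 members 2-fold or more lower over weaning, against 23, with 3 lower and 1 higher in the humanized sample and 0 lower in SPF ileum.

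The other settings kept the lower counts of both weaning comparisons within 1.5 times and called 0 members, namely median centring, offsets of 16 and 200, no filter, only genes above background throughout, the mean over probes, the series matrix, each column set alone and the trend with robust fit. The small counts of members higher after weaning in SPF ileum became 2 with median centring or an offset of 16, and 0 with an offset of 200, with genes above background throughout or with the series matrix. In germ-free ileum they became 1 with genes above background throughout and 4 with the second column set, and averaged over both weanings 0 with the former and 2 with median centring. The 1 member higher in humanized than in SPF ileum was 0 with median centring, the offset of 200, genes above background throughout and the series matrix. In SPF against germ-free ileum before weaning 2 members were lower with an offset of 16 or the second column set. The series matrix put 17 members higher and 0 lower there, and 4 higher after weaning, but moved the median of all genes to 0.77 and 0.47 in these comparisons and to -0.42 in SPF weaning; the members' own medians were then 1.02, 0.28 and -1.78. Dim Ctsa differed by -1.64 in SPF weaning with an offset of 16 and by -0.60 with 200. No paired analysis was possible because the groups share fewer than 2 replicate numbers. Members undetected in a sample have only a bound there.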
